A study of Homo sapiens with 5 samples.

Results

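The 42 genes described here encode the enzymes of glycolysis with their isozymes, the transporters that carry glucose into and lactate out of the cell, and the enzymes that set the entry of pyruvate into the mitochondrion. They were matched by symbol to a list put together from their roles in the pathway, with earlier results of these data known but no measured value in the rule, out of 64837 entries counted, and were read at 15 steps of the pathway. The cells were NCI-H209, an established human small cell lung cancer (SCLC) line. In the control group (3 libraries) these cells were cultured alone, and in the co-cultured group (2 libraries) they shared a Transwell system with human brain microvascular endothelial cells (HBMECs) for 24 h, with the HBMECs in the insert and the tumor cells in the well below. All 5 libraries were of the same parental line with no added agent or genetic change, the RNA was depleted of rRNA and sequenced as directional libraries, and no source used here says whether the control wells held an empty insert or whether replicates were separate cultures. The p-values below therefore measure the spread between these libraries only.

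Glycolysis splits glucose into pyruvate in a chain of enzymes, and most steps can be run by more than one isozyme, each from its own gene. Hexokinase, phosphofructokinase and pyruvate kinase catalyze the steps that are in practice irreversible, and fructose 2,6-bisphosphate, made and broken down by the PFKFB enzymes, is the main activator of phosphofructokinase. Pyruvate is then reduced to lactate by lactate dehydrogenase and exported by monocarboxylate transporters, or oxidized by pyruvate dehydrogenase, which the PDK kinases switch off. Many tumors convert glucose to lactate at a high rate even with oxygen present, and several glycolytic genes are known targets of the hypoxia-inducible factors.

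The libraries held 17317045 to 19157348 counts on genes in control and 15457071 and 18918787 in the co-cultured group, and between 92.3% and 93.1% of reads on genes fell on the expected strand. Unmapped reads made up 8.13% to 8.48% of each control library and 15.9% and 16.8% of the co-cultured ones, a difference that moved with the groups and whose part in the results was not tested. Control 1 stood apart from control 2 and 3 on the second principal component (18.3% of the variance), while the first (64.7%) separated the groups. Levels are given as CPM, the counts of a gene relative to the TMM-scaled library total. Fold changes are co-cultured over control on the log2 scale, with the standard error (SE) and a p adjusted over all 20360 genes tested.

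The stretches just before the annotated gene starts are shown first, for a selection of the genes. HK2 and HK1, LDHA and LDHB, and ENO1 and ENO2 are isozyme pairs whose ratios did not overlap between the groups. They are 3 of 17 such pairs out of 20 compared. Of all single genes tested, 29.4% lay wholly above control and 30% wholly below. SLC2A1 and PGK1 are the glucose transporter and a single-isozyme step with large rises. Each sequence is the 250 bases upstream of the start, read 5′ to 3′ on the strand of the gene, from RefSeq on GRCh38.p14. Capitals mark the letters ACGTG or GCGTG on either strand, which are the core of the hypoxia response element. The windows lie at chr2:74833877-74834126 (plus strand) for HK2, chr10:69269750-69269999 (plus) for HK1, chr11:18394313-18394562 (plus) for LDHA and chr12:21657843-21658092 (minus) for LDHB. Those of ENO1, ENO2, SLC2A1 and PGK1 lie at chr1:8878687-8878936 (minus), chr12:6914330-6914579 (plus), chr1:42958869-42959118 (minus) and chrX:78103998-78104247 (plus).
HK2: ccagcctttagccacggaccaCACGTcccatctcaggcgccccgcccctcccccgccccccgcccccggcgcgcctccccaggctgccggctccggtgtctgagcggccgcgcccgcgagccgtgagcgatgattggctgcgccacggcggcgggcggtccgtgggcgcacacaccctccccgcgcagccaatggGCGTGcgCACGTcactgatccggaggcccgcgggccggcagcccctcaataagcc
HK1: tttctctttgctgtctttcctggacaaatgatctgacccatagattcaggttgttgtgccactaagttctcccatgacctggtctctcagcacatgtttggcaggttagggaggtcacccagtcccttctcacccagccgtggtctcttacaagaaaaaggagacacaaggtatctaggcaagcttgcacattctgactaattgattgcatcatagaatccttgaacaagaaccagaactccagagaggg
LDHA: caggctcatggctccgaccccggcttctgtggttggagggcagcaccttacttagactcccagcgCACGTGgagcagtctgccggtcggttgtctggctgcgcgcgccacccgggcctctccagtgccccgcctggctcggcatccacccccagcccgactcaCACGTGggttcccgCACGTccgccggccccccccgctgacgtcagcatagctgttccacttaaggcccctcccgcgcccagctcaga
LDHB: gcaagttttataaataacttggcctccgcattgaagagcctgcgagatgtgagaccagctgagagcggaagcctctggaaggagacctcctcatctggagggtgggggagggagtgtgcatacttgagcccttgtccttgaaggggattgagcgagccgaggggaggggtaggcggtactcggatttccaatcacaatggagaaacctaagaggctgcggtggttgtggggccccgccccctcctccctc
ENO1: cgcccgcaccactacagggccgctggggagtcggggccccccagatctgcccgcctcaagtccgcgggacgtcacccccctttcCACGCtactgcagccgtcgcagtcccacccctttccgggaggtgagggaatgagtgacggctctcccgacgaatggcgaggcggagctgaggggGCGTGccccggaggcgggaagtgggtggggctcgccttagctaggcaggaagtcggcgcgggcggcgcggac
ENO2: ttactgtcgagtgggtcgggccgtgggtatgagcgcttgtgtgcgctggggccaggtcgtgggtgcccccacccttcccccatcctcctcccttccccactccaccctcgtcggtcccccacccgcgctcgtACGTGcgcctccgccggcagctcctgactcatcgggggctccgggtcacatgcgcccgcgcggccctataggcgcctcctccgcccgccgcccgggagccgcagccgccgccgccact
SLC2A1: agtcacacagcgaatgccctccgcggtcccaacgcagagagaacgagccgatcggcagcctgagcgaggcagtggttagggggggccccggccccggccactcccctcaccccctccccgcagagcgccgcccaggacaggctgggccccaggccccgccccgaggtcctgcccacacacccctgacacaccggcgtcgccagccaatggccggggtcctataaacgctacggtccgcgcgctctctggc
PGK1: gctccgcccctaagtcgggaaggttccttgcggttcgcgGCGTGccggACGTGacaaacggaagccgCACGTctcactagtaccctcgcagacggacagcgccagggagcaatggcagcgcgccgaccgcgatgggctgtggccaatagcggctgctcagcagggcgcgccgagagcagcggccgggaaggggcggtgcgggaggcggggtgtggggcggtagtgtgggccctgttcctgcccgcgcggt

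The LDHA window held ACGTG 5 times counted over both strands, since the run CACGTG reads as the motif on each strand and occurs at 2 places, while the LDHB window held neither form. The HK2 window held 3 matches and that of HK1 none. The ENO1 window held 2 and that of ENO2 held 1, PGK1 held 3, and the SLC2A1 window held none. Other pairs with ratios that did not overlap differed in this. ALDOC held 5 against 1 in ALDOA, but PGAM1 held none against 1 in BPGM, and PFKP none against 1 in PFKL. SLC16A3 and SLC16A7 both held none. A window could be matched for 39 of the 42 genes, all but SLC2A3, PFKFB2 and SLC16A1. Either form was found in 22 of these 39 (56.4%) against 43.2% of all 35116 windows of the same length, and ACGTG in 14 (35.9%) against 18.5%. The windows of these genes had a median GC content of 68% against 58% over all windows, and the part of base composition in the motif count was not tested. Of the 14 genes that passed the study's criterion upward (defined next), 9 held a match. So did 10 of the 21 tested genes with a window that did not pass it, and 3 of the 3 not tested. The 1 downward gene with a window held 0. A match is a description of letters only, and an annotated start need not be the one used in these cells.

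Of the 42 genes, 37 had enough counts to be tested and 24 of them (64.9%) were higher in co-cultured cells at an adjusted p under 0.05, where 18.4% of all genes tested were. Only 4 (10.8%) were lower, against 15% of all genes. By the study's criterion for DEGs, a fold change beyond 1 in either direction with a p under 0.05, here read as log2 and unadjusted, 14 (37.8%) were upregulated and 2 (5.41%) downregulated, against 5.44% and 5.01% of all genes, and all 16 also had an adjusted p under 0.05. The co-cultured libraries lay wholly above the control libraries in 26 of the 37 genes (70.3%) and wholly below in 6 (16.2%), against 29.4% and 30% of all genes. The upward counts include HKDC1, which passed the filter on low counts only through the co-cultured libraries. The median log2 fold change was 0.66, and −0.03 over all genes tested. Without co-cultured 1 the median log2 fold change of these genes was 0.37, against −0.03 over all genes tested. With upper-quartile scaling 19 were higher and 5 lower, against 15.1% and 19.3% of all genes. Under that scaling 43.9% of all calls in the series were upward in place of 55.1%.

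Together the 42 genes took 0.667%, 0.712% and 0.804% of all counts on genes in control 1, 2 and 3, and 1.48% and 1.23% in co-cultured 1 and 2. Both co-cultured libraries thus lay above all 3 control libraries. GAPDH alone supplied 31.2% to 33.5% of the set's reads in control cells, and 26.6% and 28.5% after co-culture. The libraries of a group differed too. Co-cultured 1 was above co-cultured 2 in 13 of the 14 upregulated genes, against 50.1% of all genes, and control 1 was the lowest control library in 9 of them, with 39.2% over all genes.

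Compared per kb of exon, the mean level was 784 CPM per kb for GAPDH in control, followed by TPI1 at 183, ENO2 at 94.7, LDHA at 84.6, PKM at 75.3, ENO1 at 71.0 and PGK1 at 61.1 CPM per kb. From ENO2 down to PGK1 each gene's control libraries overlapped those of its next neighbor except for PGK1, whose highest library (63.98 CPM per kb) lay just under the lowest of ENO1 (64.2 CPM per kb). In co-cultured cells GAPDH (1285 CPM per kb) and TPI1 (507 CPM per kb) still led, followed by LDHA at 253, ENO1 at 190, PGK1 at 182, ENO2 at 149, SLC2A1 at 139 and PKM at 97.0 CPM per kb. There the libraries of ENO1 and PGK1, PGK1 and ENO2, and ENO2 and SLC2A1 overlapped, and the other neighbors in this order did not. This order depends on the length used, here that of merged exons (4.28 kb for ENO2, 6.21 kb for LDHA and 8.57 kb for PKM). Not divided by length, PKM (645 CPM) and LDHA (525 CPM) lay above ENO2 (406 CPM) on the control mean. The levels of genes with many pseudogenes can be understated, as given below.

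**Figure D1:**
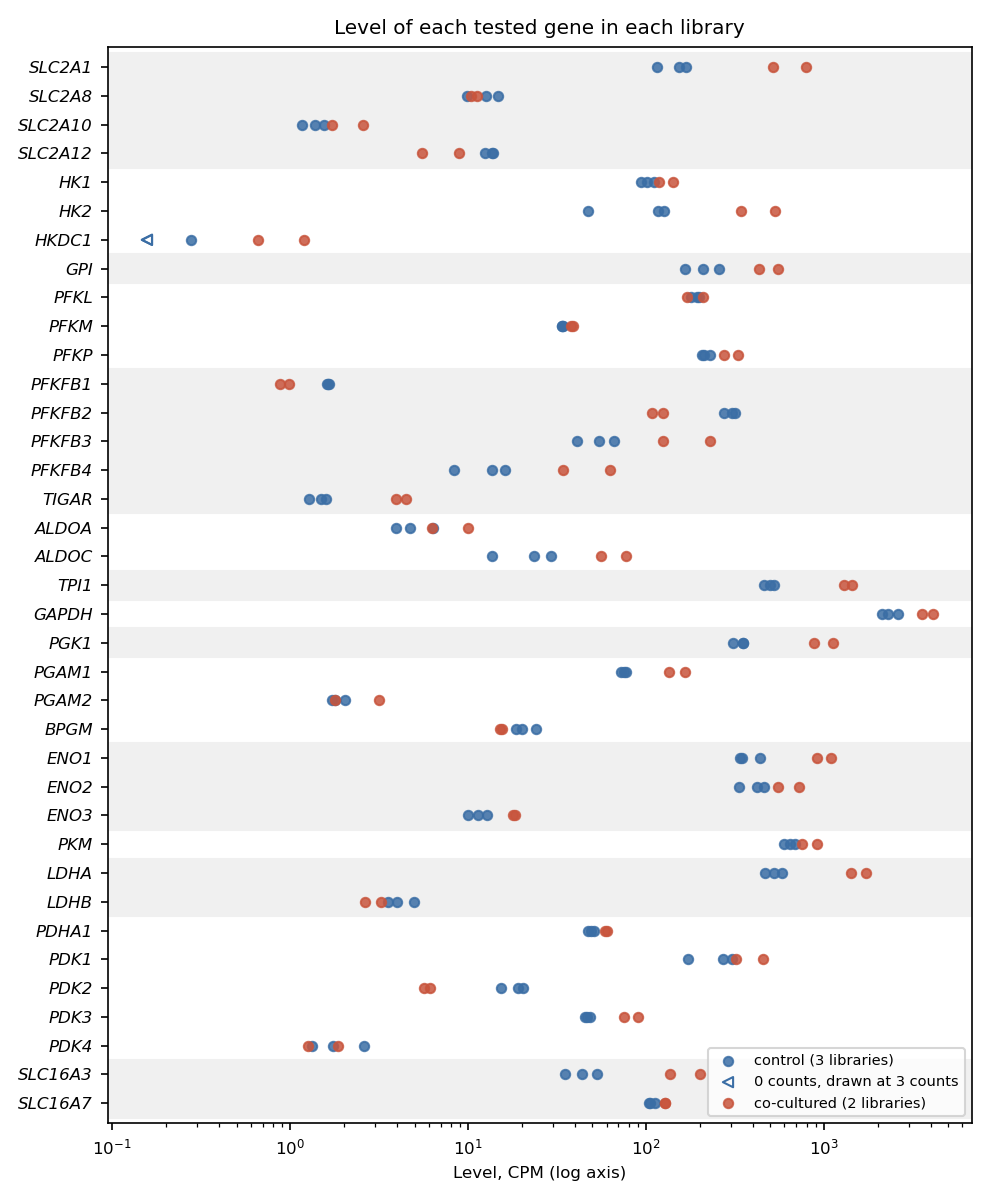
Level of each of the 37 tested genes in CPM (log axis), 1 point per library, blue for control and red for co-cultured, in pathway order with the steps shaded in turn. The red points of SLC2A1, HK2, TPI1, PGK1, ENO1, LDHA and SLC16A3 lie clear to the right of the blue ones, and those of PFKFB2 and PDK2 clear to the left.

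Glucose enters through the SLC2A (GLUT) carriers. SLC2A1 (chr1:42925375-42959176, minus strand), the basal glucose carrier GLUT1, had 116, 153 and 168 CPM in control and 797 and 517 CPM in co-cultured cells. The groups were far apart, and the log2 fold change was 2.17 ± 0.19 (SE), the rise of about 4.52-fold having an adjusted p of 9.35e-05. SLC2A12, the carrier GLUT12, went the other way, from 12.4, 13.5 and 13.8 CPM to 8.85 and 5.48 CPM. Its log2 fold change was −0.88 ± 0.19 (adjusted p = 0.00815), and without co-cultured 2 its adjusted p was 0.0724, over a range without each library of −1.27 to −0.58 on the log2 scale. On the opposite strand SLC2A12 overlaps TBPL1, and 39.3% of the reads at its exons were on that strand, which the counts used here leave out.

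The remaining glucose carriers carried little. SLC2A8, an intracellular carrier, overlapped between the groups at 9.84 to 14.7 CPM in control and 10.3 and 11.2 CPM in co-cultured cells. SLC2A10 was at 1.16 to 1.54 CPM in control and 1.72 and 2.57 CPM in co-cultured cells, with an adjusted p of 0.115. SLC2A3, the high-affinity carrier GLUT3 of neurons, never exceeded 2 counts in a library, and SLC2A6 had 0 in all 5, which allows up to 3 counts or 0.157 to 0.194 CPM.

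Hexokinase traps glucose as glucose 6-phosphate. HK2 (chr2:74833981-74893359, plus strand), the inducible isozyme of many tumors, was at 47.3, 117 and 126 CPM in control and at 529 and 344 CPM in co-cultured cells. Control 1 was at 39% of the mean of the other control libraries, yet every co-cultured value was above every control value. The log2 fold change was 2.18 ± 0.34 (adjusted p = 0.00148), and 1.85 without control 1. HK1, the widely expressed isozyme bound to mitochondria, rose far less, from 93.7, 101 and 111 CPM to 142 and 118 CPM (log2 fold change 0.35 ± 0.10, adjusted p = 0.0291). That call was lost without control 2 or co-cultured 1 and with upper-quartile scaling.

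HKDC1, a hexokinase-like protein, had 0, 5 and 0 counts in control and 22 and 10 counts in co-cultured cells. It passed the filter on low counts only through the co-cultured group, so a difference was a condition of its being tested. The fitted log2 fold change of 3.31 ± 0.88 (adjusted p = 0.0188) rested on these few reads: it was 7.10 without control 2, and the call was lost without either co-cultured library (largest adjusted p 0.196).

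GPI, which turns glucose 6-phosphate into fructose 6-phosphate, was at 166, 208 and 257 CPM in control and 552 and 431 CPM in co-cultured cells. Its groups lay apart, and its log2 fold change was 1.22 ± 0.17 (adjusted p = 0.000804). A second entry of the gene on an alternative sequence held only 3 to 12 counts per library.

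Phosphofructokinase commits the sugar to glycolysis, and its 3 genes moved little. PFKP, the platelet-type isozyme, rose from 228, 205 and 211 CPM to 327 and 275 CPM (log2 fold change 0.49 ± 0.10, adjusted p = 0.00456, and 0.0740 without co-cultured 1). PFKL, the liver-type isozyme, was at 179 to 197 CPM in control and 208 and 171 CPM in co-cultured cells, and its groups overlapped. PFKM, the muscle-type isozyme, had 33.7 to 34.3 CPM in control and 37.9 and 38.9 CPM in co-cultured cells, with an adjusted p of 0.132.

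The enzymes around fructose 2,6-bisphosphate moved in both directions. PFKFB3 (chr10:6144934-6254644, plus strand), whose kinase activity far exceeds its phosphatase activity, rose from 41.05, 54.2 and 65.9 CPM to 228 and 125 CPM, with a log2 fold change of 1.71 ± 0.24 (adjusted p = 0.000908). PFKFB4 rose from 8.35, 13.7 and 16.2 CPM to 63.0 and 33.95 CPM, with a log2 fold change of 1.93 ± 0.28 (adjusted p = 0.00114). In both genes co-cultured 1 was well above co-cultured 2, and without it their log2 fold changes were 1.22 and 1.42.

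PFKFB2 (chr1:207034366-207081024, plus strand), the heart isozyme, fell, from 315, 275 and 303 CPM to 108 and 125 CPM. Its log2 fold change was −1.35 ± 0.10 (adjusted p = 4.62e-05). PFKFB1, the liver and muscle isozyme, was low throughout, at 1.60 to 1.65 CPM in control and 0.874 and 0.991 CPM in co-cultured cells, and did not pass the test (adjusted p = 0.0648). TIGAR, a phosphatase induced by p53 that lowers fructose 2,6-bisphosphate, rose from 1.60, 1.27 and 1.48 CPM to 3.94 and 4.49 CPM (log2 fold change 1.53 ± 0.23, adjusted p = 0.00134). A same-strand entry covers 42.6% of the TIGAR exons, where reads cannot be assigned to one gene, so this count is no measure of its full level.

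Aldolase splits fructose 1,6-bisphosphate. ALDOC, the brain isozyme, rose from 13.6, 23.3 and 29.2 CPM to 77.2 and 55.8 CPM (log2 fold change 1.59 ± 0.25, adjusted p = 0.00165). It was lowest in control 1, at 51.6% of the mean of control 2 and 3. ALDOA, the muscle and ubiquitous isozyme, had only 74 to 124 counts in control and 182 and 95 counts in co-cultured cells (adjusted p = 0.0601), but 42.3% of its exon bases lie under another same-strand entry, AC093512.2, and reads there were left out as ambiguous. The order of the aldolases by level is therefore uncertain.

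The next 3 steps each rest on a single gene here. TPI1, which interconverts the triose phosphates, rose from 525, 458 and 500.4 CPM to 1444 and 1292 CPM (log2 fold change 1.47 ± 0.09, adjusted p = 2.70e-05). GAPDH, which oxidizes glyceraldehyde 3-phosphate and is often used as a reference gene, had the highest level per length of the 42 genes in both groups. It rose from 2276, 2129 and 2604 CPM to 4085 and 3576 CPM, a log2 fold change of 0.71 ± 0.11 (adjusted p = 0.00154).

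PGK1 (chrX:77910739-78129296, plus strand), the first enzyme of the pathway to yield ATP, rose from 349, 308 and 353 CPM to 1129 and 881 CPM, with a log2 fold change of 1.58 ± 0.12 (adjusted p = 4.57e-05). Its rise was thus larger than that of GAPDH, and control 1 was not its lowest library. Reads that mapped to several places (7.05% to 7.75% of each library) were not counted, and the annotation names 62 pseudogenes of GAPDH, 13 of PGAM1, 6 of LDHA, 5 of PKM and 4 each of TPI1 and ENO1 and 3 of SLC2A3, so the levels of these genes can be understated.

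**Figure D2:**
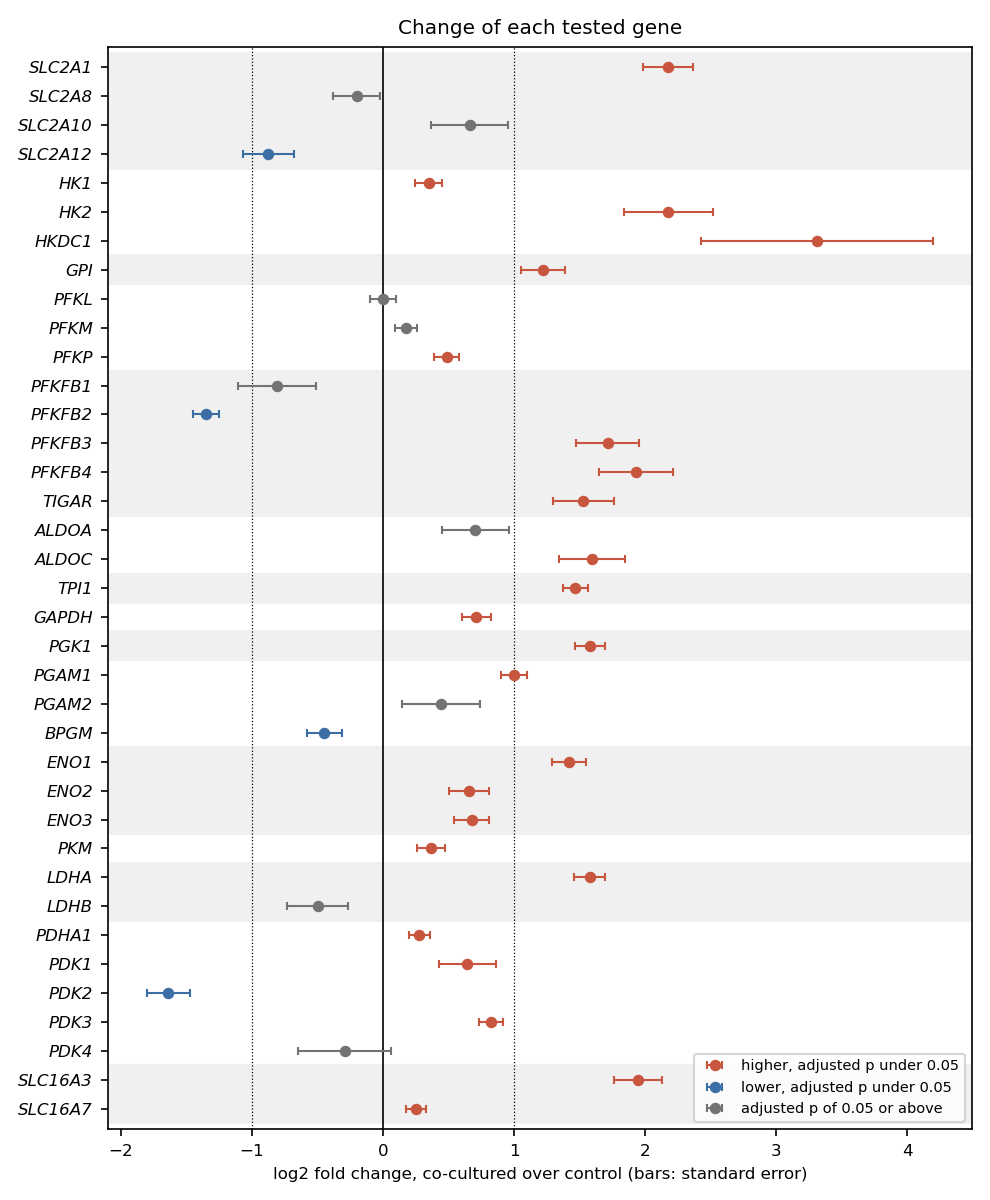
Log2 fold change (co-cultured over control) of the 37 tested genes in pathway order, with the SE as bars and dotted lines at the study's criterion of 1 in either direction. Red marks the 24 genes that were higher and blue the 4 that were lower at an adjusted p under 0.05, and HKDC1 has the widest error.

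PGAM1, the main phosphoglycerate mutase, rose from 77.0, 72.4 and 75.3 CPM to 166 and 134 CPM. Its log2 fold change of 1.001 ± 0.10 (adjusted p = 0.000158) lay just inside the criterion, and was 0.85 without co-cultured 1. BPGM, which makes the 2,3-bisphosphoglycerate of red cells, fell from 23.9, 18.7 and 20.02 CPM to 15.1 and 15.5 CPM (log2 fold change −0.45 ± 0.13, adjusted p = 0.0293), a call lost in 4 of the 13 alternatives, those without control 3 and without either co-cultured library included (largest adjusted p 0.177). PGAM2, the muscle form, lies wholly within DBNL on the opposite strand, and had 27 to 58 counts per library with overlapping groups.

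All 3 enolase genes had an adjusted p under 0.05 upward, of which only the call of ENO1 held without co-cultured 1. ENO1 (chr1:8861000-8879250, minus strand), the ubiquitous isozyme, rose from 347, 339 and 437 CPM to 1092 and 909.9 CPM (log2 fold change 1.42 ± 0.13, adjusted p = 0.000104). ENO2, neuron-specific enolase and a classical marker of SCLC, rose less, from 332, 422 and 463 CPM to 729 and 549 CPM (log2 fold change 0.66 ± 0.15, adjusted p = 0.0103, and 0.148 without co-cultured 1). ENO3, the muscle isozyme, rose from 10.0, 12.8 and 11.3 CPM to 18.4 and 17.97 CPM (adjusted p = 0.00480, and 0.0593 without co-cultured 1), while 77.3% of the reads at its exons lay on the opposite strand and were not counted.

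Pyruvate kinase makes pyruvate and ATP. PKM rose slightly, from 647, 598 and 691 CPM to 909 and 753 CPM (log2 fold change 0.37 ± 0.10, adjusted p = 0.0255), and lost its call in 4 of the 13 alternatives, those without control 2 and without co-cultured 1 included (largest adjusted p 0.264). Counts per gene cannot tell its splice forms PKM1 and PKM2 apart. PKLR, the liver and red cell gene, had 0 counts in all 5 libraries.

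Lactate dehydrogenase reduces pyruvate to lactate. LDHA (chr11:18394388-18408425, plus strand), the muscle-type subunit, rose from 467, 524 and 585 CPM to 1712 and 1424 CPM. Its log2 fold change was 1.58 ± 0.12 (adjusted p = 4.73e-05). LDHB, the heart-type subunit, was low in these cells, at 3.53 to 5.00 CPM in control and 3.22 and 2.64 CPM in co-cultured cells, and did not pass the test (adjusted p = 0.131). Another same-strand entry covers 33.4% of the LDHB exons, and LDHC, the testis form, had 0 to 3 counts in control and 3 and 7 counts in co-cultured cells.

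At the entry of pyruvate into the mitochondrion, PDHA1, a subunit of pyruvate dehydrogenase, rose by 0.28 ± 0.08 on the log2 scale (adjusted p = 0.0251), from 47.4 to 51.3 CPM over the control libraries to 60.3 and 59.1 CPM, a call lost in 7 of the 13 alternatives and in 4 of the 5 fits without 1 library (largest adjusted p 0.156). Of the kinases that inhibit it, PDK1 rose from 173, 272 and 303 CPM to 456 and 321 CPM, with a log2 fold change of 0.64 ± 0.22 close to the threshold (adjusted p = 0.0480, and 0.00384 without control 1). PDK3 rose from 46.4, 45.1 and 48.2 CPM to 89.7 and 75.3 CPM (log2 fold change 0.83 ± 0.09, adjusted p = 0.000291). The PDK1 call was lost in 6 alternatives, DESeq2 among them, and that of PDK3 in none.

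PDK2 (chr17:50094737-50112152, plus strand), a widely expressed kinase of the same family, moved against PDK1 and PDK3 and fell from 15.4, 19.02 and 20.5 CPM to 5.68 and 6.08 CPM. Its log2 fold change was −1.64 ± 0.16 (adjusted p = 0.000180), the largest fall of the 37 genes. PDK4, the kinase of fasting, was at 1.33 to 2.599 CPM in control and 1.26 and 1.85 CPM in co-cultured cells, with overlapping groups.

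Lactate leaves the cell through monocarboxylate transporters. SLC16A3 (chr17:82228397-82261129, plus strand), the exporter MCT4 of glycolytic cells, rose from 35.04, 43.5 and 53.1 CPM to 200.3 and 137 CPM. Its log2 fold change was 1.94 ± 0.18 (adjusted p = 0.000132). SLC16A7, the high-affinity carrier MCT2, rose slightly from 112, 105 and 104 CPM to 127 and 128 CPM (log2 fold change 0.25 ± 0.07, adjusted p = 0.0291), a call lost in 7 alternatives. SLC16A1, the widely expressed carrier MCT1, had 0 counts on its own strand in every library, with 11 to 27 reads on the opposite strand where SLC16A1-AS1 lies.

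**Figure D3:**
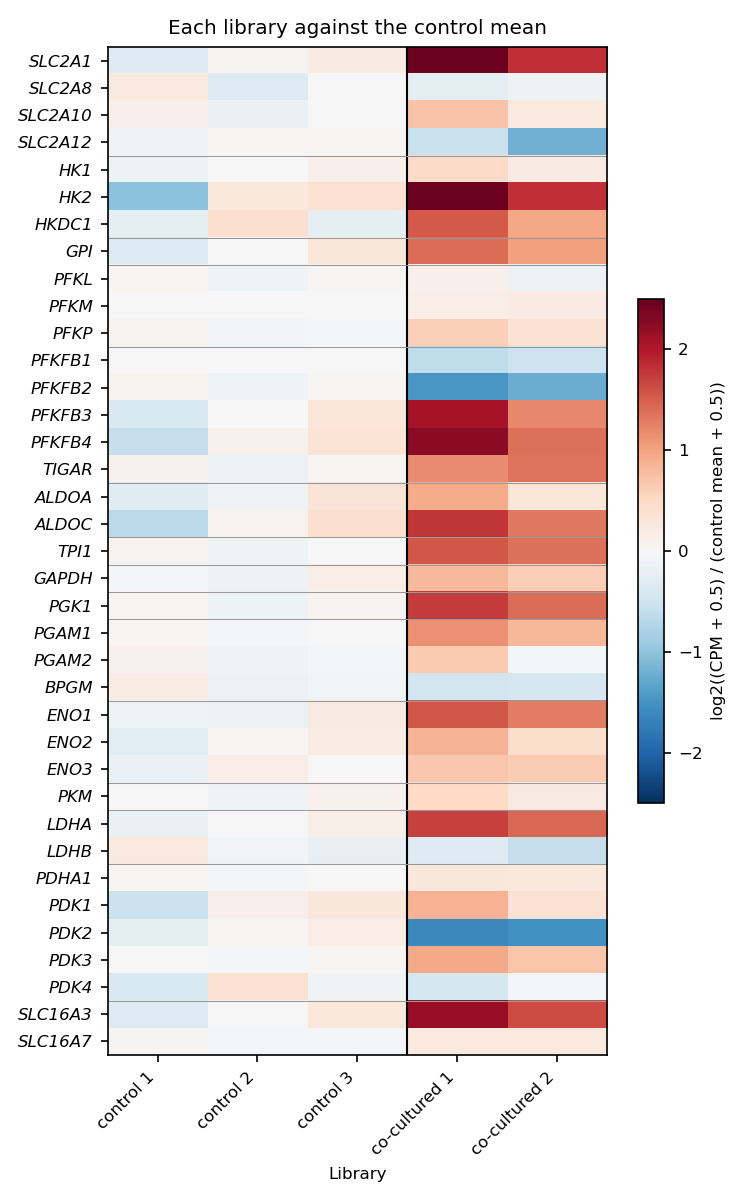
Log2 ratio of the level in each library (CPM + 0.5) to the control mean (CPM + 0.5) for the 37 tested genes, red above and blue below, with the color scale ending at 2.5 in either direction. Co-cultured 1 is darker than co-cultured 2 in most red rows, and control 1 is blue for HK2, ALDOC, PFKFB4 and PDK1.

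To see which isozyme led each step, levels were divided by exon length and expressed as the share of the summed level of the isozymes of that step in each library. TIGAR and PDHA1 were left out, since they do not share the reaction of the other genes of their step. BPGM was kept with the mutases although its product named above differs, and it held 20.7% in control and 9.07% in co-cultured cells. Over 11 families the same gene led in both groups in 7. These include pyruvate kinase, where PKLR had 0 counts throughout, and aldolase, whose order by level is uncertain. The leading gene changed in 4: from HK1 to HK2, PFKFB2 to PFKFB3, ENO2 to ENO1 and SLC16A7 to SLC16A3. SLC2A1 led glucose uptake, its share being 82.5% ± 3.75 (SD, n = 3) without HBMECs and 96.6% ± 0.679 (SD, n = 2) with them. LDHA held 98.3% ± 0.480 and 99.6% ± 0.0436 of lactate dehydrogenase, PFKP 63.2% ± 0.743 and 70.1% ± 0.289 of phosphofructokinase, and PGAM1 73.8% ± 1.78 and 86.7% ± 0.427 of its family.

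In the PFKFB family PFKFB2 held 77.6%, 69.4% and 67.6% in control and 18.1% and 31.7% in co-cultured cells, and PFKFB3 16.9%, 22.8% and 24.6% against 63.5% and 52.7%. PFKFB4 held 3.44%, 5.77% and 6.03% in control, and 17.6% and 14.4% after co-culture. No value of one group reached into the other for any of these 3 genes. Without division by length, PFKFB3 still led on the co-cultured mean (50.3% against 35.5% for PFKFB2). In co-cultured 2 alone the counts were level, at 1887 for PFKFB3 and 1896 for PFKFB2.

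HK2 held 34.4%, 54.4% and 53.9% of hexokinase in control 1, 2 and 3 and 79.3% and 74.9% in co-cultured cells. HK1 led in control 1 only, at 65.6%, so without that library HK2 was the leading isozyme in both groups and the leading gene changed in 3 families. ENO1 held 45.2%, 38.7% and 42.8% of enolase in control and 54.3% and 56.6% in co-cultured cells. By counts not divided by length, ENO1 was already above ENO2 in control 1 (6522 against 6238). SLC16A3 held 32.2%, 38.5% and 43.6% of the lactate carriers in control and 70.5% and 62.0% in co-cultured cells. Among the kinases of pyruvate dehydrogenase, PDK1 led in both groups (55.3% and 58.8% on average), and PDK2 went from 11.2% ± 0.389 (SD, n = 3) to 2.48% ± 0.584 (SD, n = 2). The size of a share depended on the length used, which these SDs leave out. Without division by length PDK1 held 78.2% in control and 81.0% in co-cultured cells, and PDK2 5.87% and 1.27%. PFKP then held 49.0% and 56.9% of phosphofructokinase.

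Whether 2 isozymes of a step changed unequally was tested on the log2 ratio of their counts in each library (0.5 added to each count), by a two-sided exact permutation test over the libraries, which cannot go below p = 0.1 with 3 against 2. Of 20 pairs, each the leading control isozyme against another of its step, 17 had ratios that did not overlap between the groups. The smallest possible exact p of 0.1 was reached by 16 (0.125 after Benjamini-Hochberg adjustment over the 20 pairs), and none could pass 0.05 in this design. Of all single genes tested, 29.4% lay wholly above control and 30% wholly below, and the share over other gene pairs was not computed. Pairs of 1 family share a denominator, so they are not independent. The ratio of PFKFB4 to PFKFB2 differed by 3.26 on the log2 scale and that of PFKFB3 to PFKFB2 by 3.03. HK2 to HK1 differed by 1.92, SLC16A3 to SLC16A7 by 1.69 and ENO1 to ENO2 by 0.77, and in each the co-cultured libraries were both above all control libraries. The log2 ratio of LDHB to LDHA averaged −6.98 in control and −9.05 in co-cultured cells. The overlapping pairs were ENO3 to ENO2, PDK3 to PDK1 and PDK4 to PDK1, and HKDC1 to HK1 gave an exact p of 0.2.

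**Figure D4:**
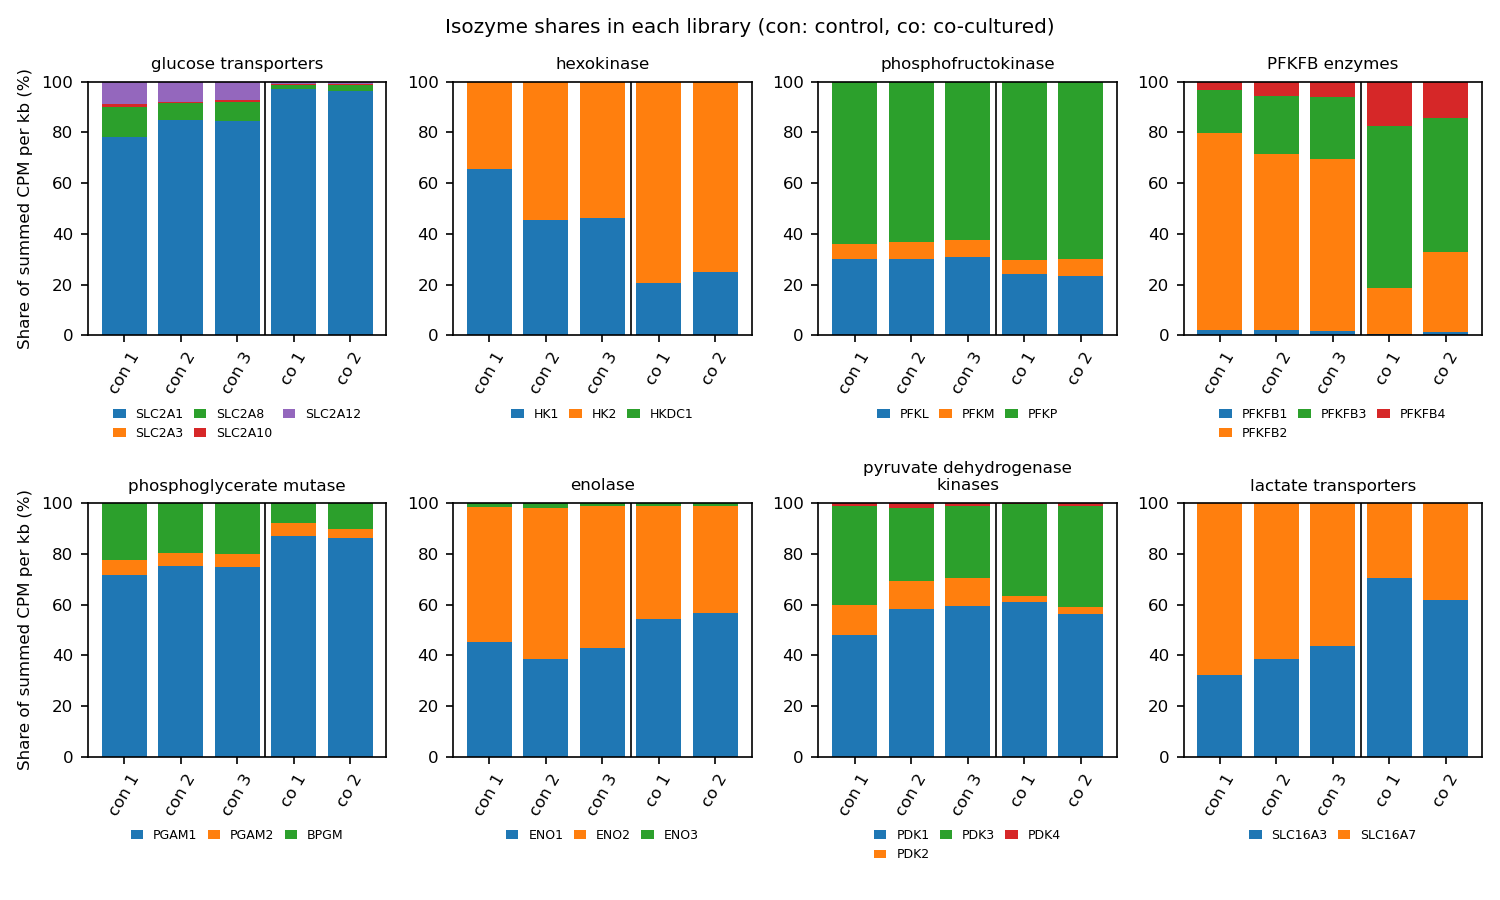
Share of each isozyme in the summed CPM per kb of its family (%), 1 stacked bar per library, for 8 families, with control (con) left and co-cultured (co) right of the line. PFKFB2 shrinks from 67.6% or more to 31.7% or less, HK2 is below HK1 in control 1 only, and PDK1 keeps the largest share of its family in every library.

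Neighboring pathways were read in the same way, against 18.4% of all genes higher and 15% lower. Of the other glycolysis and transport genes 8 of 20 were tested, and 3 were higher and 0 lower by edgeR, at a median log2 fold change of 0.07. One passed the criterion: SLC5A1, a sodium-coupled glucose carrier, with 6 to 8 counts in control and 23 and 21 counts in co-cultured cells (log2 fold change 1.81 ± 0.37, adjusted p = 0.00582). Like HKDC1, it was tested only through the level of the co-cultured libraries. In the pentose phosphate pathway 3 of 8 were higher and 0 lower (median 0.21), and for pyruvate entry and the dehydrogenase complex 5 of 9 were higher and 1 lower (median 0.34).

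Of the TCA cycle genes 5 of 16 were higher and 2 lower (median 0.16), and of the NADH shuttle genes 4 of 8 were higher and 0 lower (median 0.41). No gene of these pathways passed the criterion in either direction. Of the 4 gluconeogenesis genes tested none had an adjusted p under 0.05 (median −0.02). In the hexosamine pathway 1 of 4 was higher, GFPT1, the enzyme that draws fructose 6-phosphate off glycolysis, which rose from 287, 310.3 and 302 CPM to 709 and 676 CPM (log2 fold change 1.21 ± 0.08, adjusted p = 2.91e-05).

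Among the transcription factors and related proteins known to act on glycolytic genes, 6 of 13 were higher and 2 lower (median −0.02). EPAS1 (HIF-2α) rose by 1.48 ± 0.10 on the log2 scale, HIF1A (HIF-1α) by 1.08 ± 0.08 and PPARGC1A, a coactivator of mitochondrial genes, by 1.52 ± 0.22. Their adjusted p-values were 2.95e-05, 4.34e-05 and 0.00116 in that order. HIF1A went from 157, 145 and 143 CPM to 311 and 317 CPM. MYCL, the MYC family member often amplified in SCLC, fell from 643, 444 and 515 CPM to 204 and 246 CPM (log2 fold change −1.25 ± 0.16, adjusted p = 0.000477).

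**Figure D5:**
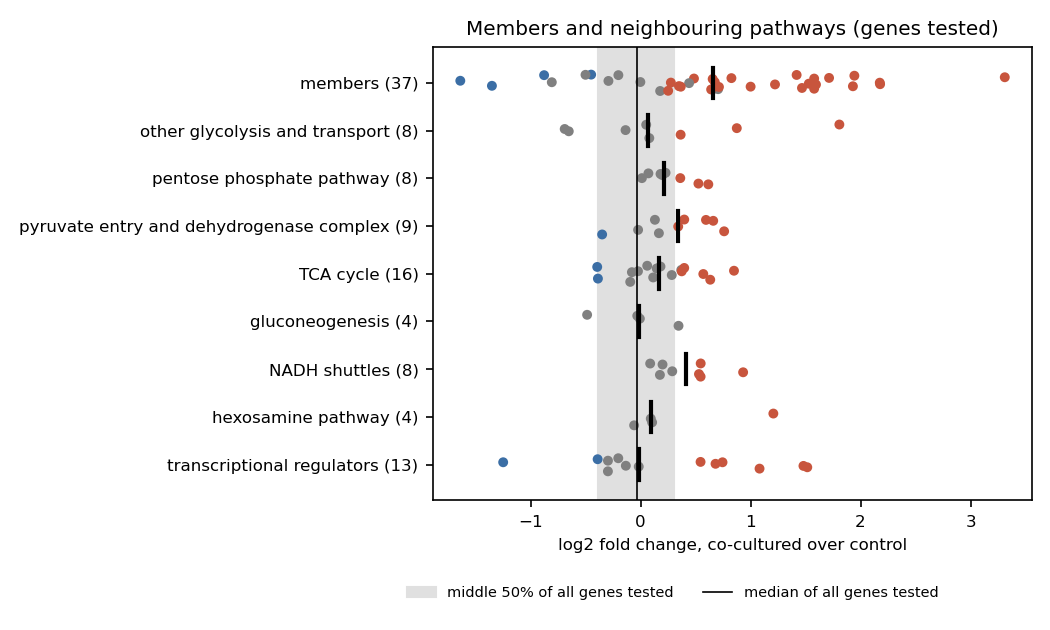
Log2 fold change of each tested gene in the 42-gene set and in 8 neighboring lists (number tested in brackets), colored red (higher) or blue (lower) where the adjusted p was under 0.05, and a black bar at each list's median and the gray band over the middle 50% of all genes. The median of the set, 0.66, lies to the right of the band, whereas 2 of the 8 list medians, 0.41 and 0.34, also lie beyond it.

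Endothelial markers were checked because the HBMECs shared the wells. Of 16 endothelial markers 8 were tested and 1 was higher, ESAM with 3, 4 and 6 counts in control and 21 and 14 counts in co-cultured cells (log2 fold change 2.14 ± 0.46, adjusted p = 0.00666), which likewise was tested only through the co-cultured libraries. PECAM1 had 3 to 14 control counts and 18 and 11 after co-culture, CDH5 4 to 11 and 7 and 11, and PLVAP 0 in all, and 6 of the 16 had at most 3 counts in every library. VWF was the highest count in control, at 75 to 159 counts against 87 and 90 in co-cultured cells. Summed over the 16 markers the level was 10.1 to 19.6 CPM in control and 13.6 CPM in both co-cultured libraries, so the groups overlapped. Of 12 neuroendocrine markers of SCLC 11 were tested, and 4 were higher and 2 lower, against 18.4% and 15% of all genes. INSM1, SYP and NCAM1 were well expressed in every library, whereas the neuroendocrine marker CHGA had 0 counts in 4 libraries and 1 in co-cultured 1. SYP and NCAM1 were among the 4 higher. The 2 lower were DDC (log2 fold change −0.58 ± 0.17, adjusted p = 0.0286) and STMN2 (−1.12 ± 0.36, adjusted p = 0.0403). In bulk RNA a larger number of expressing cells and more RNA per cell cannot be told apart.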

How the data were processed

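RNA-Seq of 3 control and 2 co-cultured NCI-H209 libraries was used, grouped by the sample titles. Per the labels, the authors' notes name CASAVA 1.8, STAR 2.6.1b, DESeq2 and GRCh38. The authors deposited raw counts per gene and library in STAR's layout, with 1 column without regard to strand and 1 for each strand. The column of the directional library's strand was used here, without the summary lines. The authors' table of the comparison holds group means, fold changes and p-values, none of which were used, and only its pairs of identifier and symbol were read. Of the 42 genes 39 were matched through it and 3 (PKLR, SLC16A1 and SLC2A6) through GENCODE. The 58780 annotated genes are joined in the files by 6057 entries on patch or haplotype sequences.

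After filterByExpr, TMM factors were computed in edgeR 4.0.16 (R 4.3.3), whose quasi-likelihood test was run on the 20360 remaining genes, with Benjamini-Hochberg adjustment over all of them. The biological coefficient of variation was 10.2%. Each SE equals the size of the log2 fold change over the square root of its F statistic. A count of 3 equals 0.157 to 0.194 CPM, and such floors cover counting error only. Chi-square per degree of freedom was 5.75 to 16.1 between control libraries and 4.19 between the co-cultured ones, so no library was a copy of another.

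Exon length was that of merged GENCODE exons. Single ratios were compared with exact permutation tests, two-sided. The 42 genes were chosen by role and the neighboring lists written by role, both with earlier results of these data known. Full values are given for genes past the study's criterion and for the leading and the most changed isozyme of a step, and of each neighboring list for up to 3 genes with the smallest p among those past the criterion. Alternatives were DESeq2 1.42.0, other scalings and filters, unstranded counts, a replicate block and each library left out. The result of 1 marker gene is not reported here. Plots were drawn with matplotlib 3.10.9.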

Additional observations from a re-analysis of the deposited data

How the results depend on the processing

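Over 13 alternative settings, 479 values of single genes were recomputed, and 435 kept their direction and their side of the threshold, 37 lost a call, 7 gained one and 0 reversed. The 16 genes past the criterion kept direction and an adjusted p under 0.05 in 205 of 207 values, the exceptions being HKDC1 without co-cultured 1 and without co-cultured 2. At the criterion itself 14 genes were up, but 13 with upper-quartile scaling, with the replicate block and without control 2, and 12 with at least 10 counts in every library and without co-cultured 1, as PGAM1 fell below a log2 fold change of 1 in all 5 (0.85 to 0.997) and HKDC1 was not tested or missed the p in the last 2. Without co-cultured 1, 3 genes were down in place of 2. In all, 11 of the 28 genes called lost the call at least once: HK1, HKDC1, PFKP, SLC2A12, BPGM, ENO2, ENO3, PKM, PDHA1, PDK1 and SLC16A7. ALDOA gained it in 5 settings and PFKFB1 in 2. Of 200 isozyme share differences 184 moved by less than the spread between libraries and 16 by more, with 0 reversed, and 0 of 120 ratio differences reversed.

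With each library left out in turn, 15 to 25 of the 42 genes were higher and 2 to 4 lower, against 8.21% to 26.5% and 4.62% to 23.04% of all genes, and the median log2 fold change ran from 0.37 to 0.85. The lowest counts were 15 without co-cultured 1 for genes higher and 2 without co-cultured 2 for genes lower. Over the same fits, genes called ran from 1 to 3 higher and 0 to 2 lower for other glycolysis and transport genes, 1 to 5 higher for the pentose phosphate pathway, 3 to 7 higher and 0 to 1 lower for pyruvate entry, and 3 to 9 higher and 0 to 2 lower for the TCA cycle. They ran from 0 to 1 higher for gluconeogenesis, 1 to 6 higher for NADH shuttles and 1 to 4 lower for the regulators. Fits with 1 co-cultured library assume that it varies like the control libraries. With DESeq2, 0 genes of pyruvate entry were lower.

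The replicate numbers pair only 2 samples of each group, and the deviations of same-numbered samples correlated at −0.11, with nothing in the labels that ties them. With the replicate block 22 of the 37 genes tested were higher and 3 lower, against 13.6% and 10.1% of all genes. PKM, PDHA1, SLC16A7 and BPGM lost the call and ALDOA gained one. Pyruvate entry then had 3 genes higher and 0 lower, and the TCA cycle had 1 lower. What a shared number means is not given in the sources used here. No change could be detected in the genes at the floor, SLC2A3, SLC2A6, PKLR and SLC16A1. Named pseudogenes of SLC2A3 held 179 counts over the 5 libraries, against 4 on the gene. The parts of depth and of uncounted reads that mapped to several places were not tested.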
